A study of Rattus norvegicus with 18 samples.

Results

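Genes of rat antigen presentation were followed across 18 RNA-seq libraries labelled as oligodendrocyte progenitor cells (OPCs), the dividing glial cells of the brain that give rise to myelinating oligodendrocytes. They are the class II genes Cd74, RT1-Da, RT1-Db1, RT1-Ba, RT1-Bb, RT1-DMa and RT1-DMb and the class I genes RT1-A2, B2m and Tap1. These 10 of 17337 genes were taken by gene name, with the levels of all transcripts of a gene summed. The study compared old with newborn cells and soft with stiff culture surfaces, and each of its 6 groups held 3 libraries. Aged soft and aged stiff libraries held cells of aged rats, sorted as OPCs and grown on hydrogels coated with laminin that the labels call soft or stiff. Aged primary libraries held magnetically sorted cells of aged rats that are not labelled as grown on a gel. Neonate soft, neonate stiff and neonate primary libraries were the matching groups from newborn rats. The labels give the growth factors FGF and PDGF for all libraries alike, and they give the age of the primary libraries only as a letter in the title. They name no strain, and whether libraries within a group stem from different rats is not said. The p-values below therefore measure the spread between libraries, which may be technical.

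MHC class I molecules sit on most nucleated cells and show peptides from the cytosol to CD8 T cells. Class II molecules are made mainly by professional antigen-presenting cells, to which microglia and macrophages of the brain can be counted, and show peptides from endosomes to CD4 T cells. Transcription of class II genes depends on the coactivator Ciita, which is drawn to a promoter module of X and Y boxes, and class I genes carry a related module beside elements that respond to interferon.

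Of the 10 genes, 9 had a promoter in the RefSeq table of the rat assembly GRCr8, which spans 250 bases before to 50 bases after each annotated start, and RT1-DMb had none. On both strands, the long form of the Y box, CTGATTGG, was found in 5 of these 9 promoters and in 3.51% of 33365 distinct promoters. Its core GATTGG, which lies inside the long form, was found in 7 of 9 and in 14.8% of all. The X box was found in RT1-Da and RT1-Db1 and in 0.249% of all promoters. In these genes it lay 20 and 19 bases before the long Y box. The windows around the Y box are shown because they let the class II promoters, RT1-A2 and B2m be read side by side, with X box and Y box letters in capitals.
RT1-Da: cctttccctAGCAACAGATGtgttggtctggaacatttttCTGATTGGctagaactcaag
RT1-Db1: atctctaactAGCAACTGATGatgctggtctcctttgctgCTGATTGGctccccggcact
RT1-Ba: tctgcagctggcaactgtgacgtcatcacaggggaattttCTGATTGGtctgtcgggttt
RT1-Bb: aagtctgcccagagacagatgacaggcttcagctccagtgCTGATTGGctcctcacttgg
RT1-DMa: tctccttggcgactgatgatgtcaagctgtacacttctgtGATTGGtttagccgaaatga
RT1-A2: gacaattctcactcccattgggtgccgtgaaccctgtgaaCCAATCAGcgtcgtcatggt
B2m: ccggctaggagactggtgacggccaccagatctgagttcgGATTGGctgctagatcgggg
In RT1-A2 the capitals match the letters of the Y box on the other strand, and whether they serve as one was not tested. The count of 5 for the long form includes this match. Each line runs 5′ to 3′ on the strand of its gene in GRCr8. The windows of RT1-Da (chr20:4515323-4515382), RT1-Ba (chr20:4576971-4577030), RT1-A2 (chr20:4872775-4872834) and B2m (chr3:129549225-129549284) are on the plus strand. Those of RT1-Db1 (chr20:4560226-4560285), RT1-Bb (chr20:4604163-4604222) and RT1-DMa (chr20:4712381-4712440) are on the minus strand.

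An interferon-stimulated response element, a repeated GAAA with a pair of free bases between the copies, was searched on both strands and found in B2m and Tap1 and in 3.92% of all promoters. It overlapped no X or Y box. Both windows are shown with the element in capitals, which in Tap1 lies on the other strand.
B2m: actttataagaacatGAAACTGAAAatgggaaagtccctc
Tap1: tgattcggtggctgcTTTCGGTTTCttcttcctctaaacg
The B2m window lies at chr3:129549165-129549204 on the plus strand, and that of Tap1 at chr20:4668640-4668679 on the minus strand of GRCr8. None of these motif forms was found in the Cd74 window, which says only that these letters are not there.

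**Figure D1:**
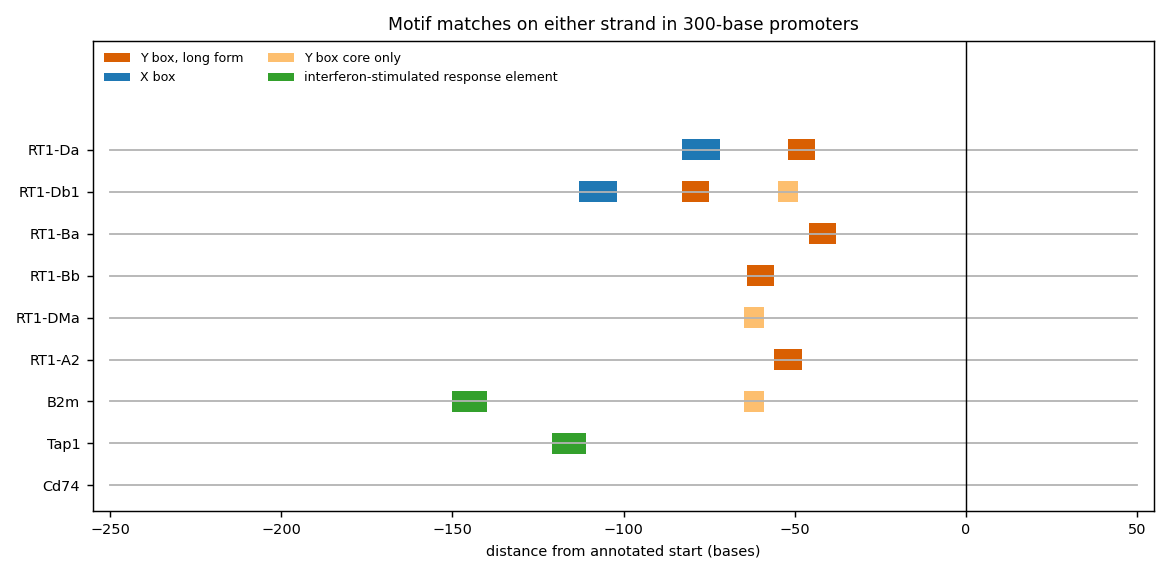
Position of each motif match on either strand, in bases from the annotated start, in the promoters of the 9 genes that have one. Y box matches of 7 genes lie between the start and 83 bases before it, and the X box form searched was matched in RT1-Da and RT1-Db1 alone.

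Depth was low. Read pairs on annotated exons, estimated from coverage at 300 bases per pair, came to 33939 to 141883 per library, and between 5842 and 14999 genes had any coverage. Levels are given in scaled TPM, the length-corrected share of transcripts multiplied by one factor per library. For Cd74 a single read pair was worth 3.71 to 17.4 scaled TPM, so a gene listed at 0 is not shown to be silent. Reads were spread unusually wide in replicate 1 of the 3 aged groups, the libraries called broad below. In these, 54.7% to 77.2% of 1196 olfactory receptor genes had coverage. The share was 39.1% and 30.8% in aged soft replicates 2 and 3, and 0.251% to 18.8% in the other libraries. Leaving out replicate 1 therefore does not free the aged soft group of this spread.

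The cell label was checked against marker genes. Pdgfra, the growth factor receptor that defines OPCs, was at 8.48, 6.24 and 12.97 scaled TPM in aged soft, 11.5, 13.8 and 2.63 in aged stiff, and 15.9, 0 and 0 in aged primary libraries. In neonate libraries it was at 56.2, 64.6 and 51.9 in soft, 22.2, 22.4 and 51.2 in stiff, and 53.7, 42.6 and 74.7 in primary ones. All aged libraries were therefore below all neonate ones. The summed level of 14 OPC markers was 359 to 704 scaled TPM in aged soft, 92.0 to 547 in aged stiff and 125 to 241 in aged primary libraries, against 1531 to 1910, 1225 to 2066 and 941 to 1172 in neonate soft, stiff and primary ones.

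The summed level of 20 microglia markers ran the other way. It was 683 to 1256 in aged soft, 334 to 935 in aged stiff and 3238 to 5533 in aged primary libraries, against 125 to 185, 40.3 to 83.3 and 183 to 315 in neonate soft, stiff and primary ones. Of these markers 17 to 19, 11 to 16 and 20 were above 0 in aged soft, stiff and primary libraries, and 8 or 9, 3 or 4 and 10 to 14 in the neonate ones. Tmem119, a marker of resident microglia, was listed at 0 in 8 of 9 neonate libraries, and the fractalkine receptor Cx3cr1 was listed at 0 in all 6 neonate gel libraries and in aged soft and aged stiff replicates 2 and 3. In every aged primary library the microglia markers summed to more than the OPC markers, which goes against the label, so these libraries are called aged primary cells and not progenitors. The same held in every aged soft library and in aged stiff replicates 1 and 2. Aged stiff replicate 3 went the other way, with 334 for microglia and 547 for OPC markers. Aged gel libraries are therefore also named by age and gel alone. In bulk samples a larger share of another cell type and more RNA per cell cannot be told apart, and the part of microglia in the results below was not tested.

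Cd74 encodes the invariant chain, which fills the groove of new class II molecules and guides them to endosomes (rn6 chromosome 18, 56071478 to 56080851). It was at 23.3, 16.2 and 107 scaled TPM in aged soft, 174, 207 and 48.0 in aged stiff and 218, 549 and 229.6 in aged primary libraries. In neonate libraries it was listed at 0 in all 3 soft ones, at 0, 6.47 and 16.2 in stiff ones and at 2.57, 0 and 7.55 in primary ones. Every aged library was above every neonate library of its own culture, although the lowest aged value and the highest neonate value over all cultures nearly met. Aged primary libraries had the highest mean and stood clear of aged stiff ones, while aged stiff and aged soft libraries overlapped, as did the 2 neonate groups in which the gene was detected.

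RT1-Da and RT1-Db1 encode the α and β chains of the rat molecule that corresponds to human HLA-DR. RT1-Da (rn6 chromosome 20, 4127644 to 4132616) had 49.1, 2.04 and 30.6 scaled TPM in aged soft, 6.16, 44.3 and 0 in aged stiff and 69.7, 124 and 76.6 in aged primary libraries. It was listed at 0 in 8 of 9 neonate libraries, with 1.35 in neonate primary replicate 1. Detection was therefore almost confined to aged libraries, and the 3 aged primary libraries lay above all others. RT1-Db1 (rn6 chromosome 20, 4087621 to 4097191) had 15.7, 15.1 and 0 in aged soft, 0 in all 3 aged stiff and 48.9, 11.2 and 10.8 in aged primary libraries. Of the neonate libraries, soft replicate 2 had 5.82 and the other 8 were at 0. Aged primary was thus the only group with all 3 libraries above 0 for this gene. In replicates 2 and 3 this rested on an estimated 1.45 and 1.35 read pairs. Exon 6 of RT1-Db1, its last, took 89.8% of the pairs over all libraries, and exons 1 to 3 had no coverage.

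RT1-Ba and RT1-Bb encode the chains of the second rat class II molecule, which corresponds to human HLA-DQ. RT1-Ba (rn6 chromosome 20, 4066133 to 4070726) was listed at 0 in all 18 libraries, in each of its 5 annotated exons, and could not be tested. RT1-Bb (rn6 chromosome 20, 4043726 to 4049367) had 6.79, 0 and 26.7 scaled TPM in aged soft, 0, 68.8 and 0 in aged stiff and 11.9, 74.8 and 9.69 in aged primary libraries, and at 0 in all 9 neonate libraries. The partner chains of this molecule therefore differed in the files, with an estimated 29.6 read pairs on RT1-Bb over all libraries and none on RT1-Ba. RT1-Bb overlaps LOC688090 on the same strand, which was listed at 0 in every library.

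RT1-DMa and RT1-DMb form the exchange factor that removes the invariant chain remnant from class II molecules and helps load peptides. RT1-DMa was at 14.6, 0 and 0 scaled TPM in aged soft, 18.1, 42.6 and 0 in aged stiff and 143, 241 and 553 in aged primary libraries. Its neonate values were 0, 7.90 and 6.86 in soft, 0, 0 and 8.25 in stiff and 36.7, 0 and 14.8 in primary libraries. It was the class II gene detected most often in neonate cells, above 0 in 5 of 9 libraries. In aged gel libraries it lay within the neonate range over all cultures apart from a single library, aged stiff replicate 2. Neonate gel libraries alone reached at most 8.25, and aged soft replicate 1 and aged stiff replicates 1 and 2 lay above that. RT1-DMb was at 7.89, 17.7 and 0 in aged soft, 0 in all 3 aged stiff and 0, 18.2 and 29.1 in aged primary libraries, with 0.60 in neonate soft replicate 1 and 0 in the other neonate libraries. Each DM gene is annotated at 2 loci of chromosome 20 in rn6, and for RT1-DMa the estimated pairs were split into 51.4 and 66.3 between them, an assignment that is uncertain for such near-identical copies.

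B2m encodes β2-microglobulin, the light chain of every class I molecule (rn6 chromosome 3, 114087287 to 114093311). It was detected in all 18 libraries, at 295, 437 and 419.8 scaled TPM in aged soft, 185, 131 and 109 in aged stiff and 186, 379 and 394 in aged primary libraries. In neonate libraries it was at 25.6, 24.3 and 29.4 in soft, 95.2, 75.9 and 11.4 in stiff and 29.9, 9.72 and 17.95 in primary ones. No aged library overlapped any neonate library, across cultures too. The group means were 384 ± 77.2, 142 ± 38.9 and 319.8 ± 116 in aged soft, stiff and primary libraries and 26.5 ± 2.67, 60.8 ± 43.9 and 19.2 ± 10.1 in neonate soft, stiff and primary ones (SD, n = 3 each). Aged soft and aged primary libraries overlapped, and so did the 3 neonate groups.

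RT1-A2 is a classical class I heavy chain (rn6 chromosome 20, 5375011 to 5378536). It was at 165, 139 and 199.9 scaled TPM in aged soft, 206, 16.3 and 159.8 in aged stiff and 172, 11.2 and 348 in aged primary libraries. The neonate values were 4.18, 0 and 0 in soft, 10.1, 9.60 and 3.43 in stiff and 7.22, 13.6 and 7.52 in primary libraries. Replicate 2 of aged stiff and of aged primary cells stood far below the other aged libraries, and that of aged primary cells lay inside the neonate range. Reads of class I heavy chains are uncertain because the rat carries many near-identical copies. Summed over 17 RT1-A and RT1-CE genes, a sum added after the values were seen, the level was 322 to 374 in aged soft, 223 to 533 in aged stiff and 253 to 519 in aged primary libraries, against 7.49 to 30.5, 6.52 to 13.3 and 19.7 to 38.1 in neonate soft, stiff and primary ones. RT1-A2 made up 4.35% and 4.44% of that sum in the 2 low aged libraries and 38.6% to 71.5% in the other 7 aged libraries, while RT1-CE7 reached 109.9 and 107 scaled TPM in those 2, its highest values.

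Tap1 encodes a subunit of the transporter that brings cytosolic peptides to class I molecules (rn6 chromosome 20, 3979302 to 3989669). It was at 21.2, 31.8 and 50.5 scaled TPM in aged soft, 4.90, 86.9 and 35.0 in aged stiff and 32.5, 75.2 and 43.4 in aged primary libraries. In neonate libraries it was at 0, 17.3 and 3.70 in soft, 3.64, 8.77 and 10.4 in stiff and 0, 5.91 and 6.24 in primary ones. The ages did not overlap in soft gels or in primary cells, but in stiff gels aged replicate 1 was below 2 of 3 neonate libraries.

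**Figure D2:**
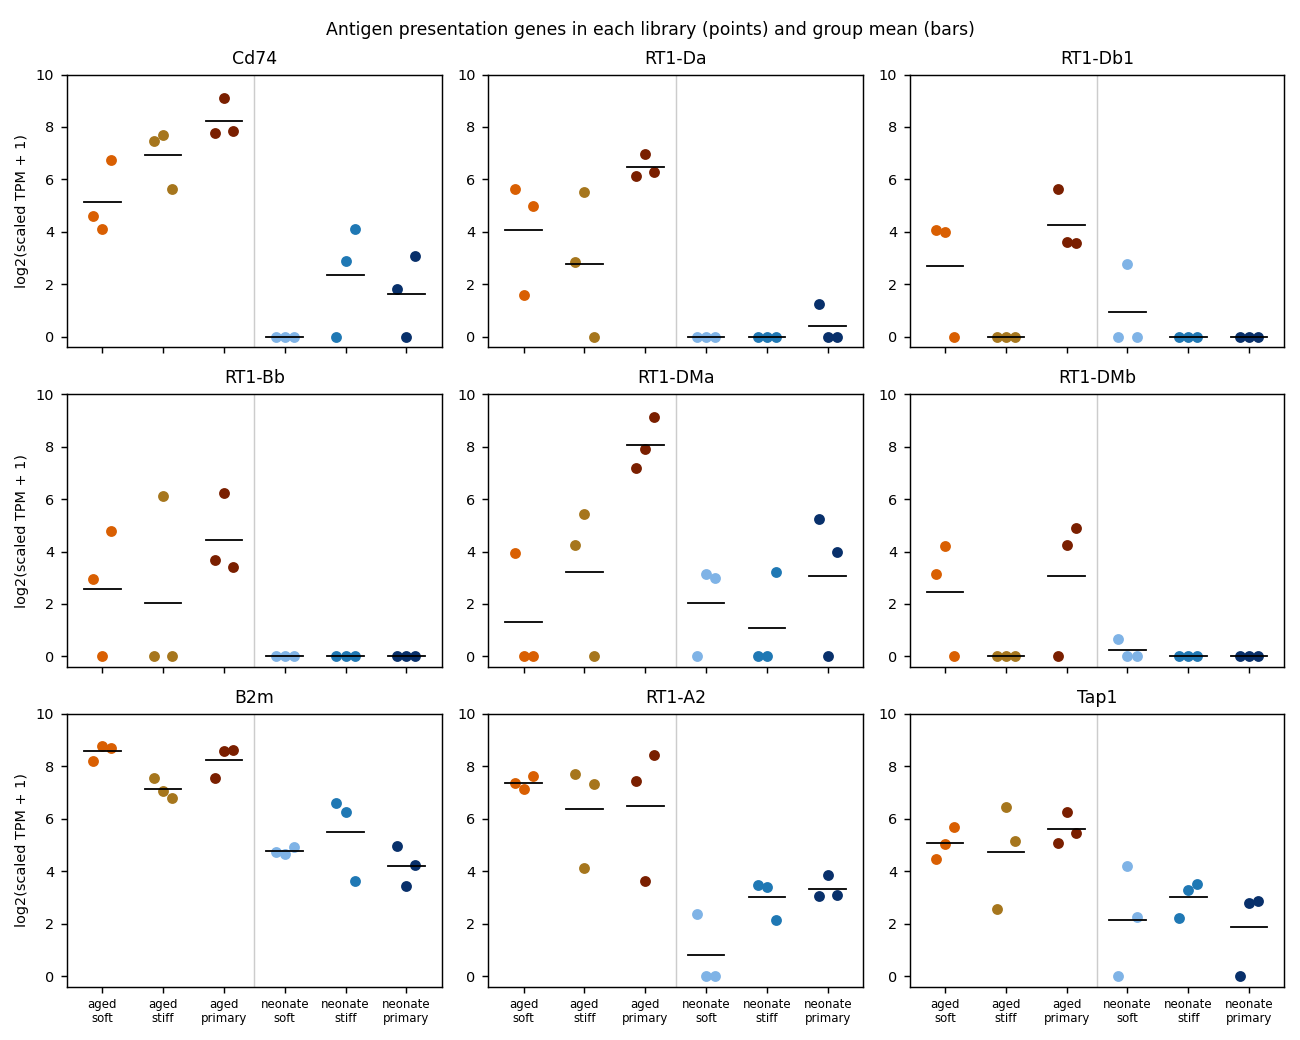
Level of each gene on the log2(scaled TPM + 1) scale in the 3 libraries of every group (points) with the mean of the group (bar), leaving out RT1-Ba, which was listed at 0 throughout. B2m separates all aged from all neonate libraries, whereas RT1-Db1 and RT1-DMb lie at 0 in all aged stiff libraries.

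Aged primary cells were set against neonate primary cells to ask how sorted cells differ with age before growth on a gel. Cd74, RT1-Da and B2m rose in aged cells. Cd74 differed by 6.60 on the log2(scaled TPM + 1) scale (95% interval 4.56 to 8.64; limma, adjusted p = 0.000311), RT1-Da by 6.05 (3.54 to 8.57; limma, adjusted p = 0.00557) and B2m by 4.04 (2.72 to 5.37; limma, adjusted p = 0.00057). These 3 of the 9 genes tested were called, against 2.6% of all 15144 genes in either direction and 1.94% higher. RT1-Db1, Tap1 and RT1-DMa were just above the threshold of 0.05, with differences of 4.27, 3.71 and 4.996 (limma, adjusted p = 0.0509, 0.0552 and 0.0586). RT1-Db1 was called with a TPM filter of 5 (limma, adjusted p = 0.0449), with no scaling (0.0438) and with quantile normalization (0.0325). RT1-Bb, RT1-A2 and RT1-DMb differed by 4.45, 3.16 and 3.06 and were not called (limma, adjusted p = 0.108, 0.11 and 0.213). The groups did not overlap for 7 of the 9 genes, with aged libraries higher, which held for 11.1% of all genes. The median difference of the 9 genes was 4.27, against 0.69 for all genes. Without aged primary replicate 1 these medians were 4.59 and 0, so the value for all genes rested on that broad library. RT1-Da, RT1-Db1, RT1-Bb and RT1-DMb reached the test only through aged libraries, so these counts describe the list and are no support for a direction. The 3 calls held whichever of the 6 libraries was left out. RT1-A2 was called as well without aged primary replicate 2, its low library (limma, adjusted p = 0.0146), and RT1-DMb without aged primary replicate 1 (0.028). By comparison, voom on estimated read pairs called 8 of the 9 genes against 6.83% of all genes. In the same contrast 17 of 20 microglia markers rose and 5 of 14 OPC markers fell. The microglia markers Tmem119, Aif1, Tyrobp, Ptprc, C1qa, C1qb and Fcer1g passed the filter only through aged libraries. Counts of microglia markers, here and for age on gels, are therefore no support for a direction.

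On soft gels Cd74, RT1-A2 and B2m rose in aged cells. RT1-A2 differed by 6.59 (4.50 to 8.68; limma, adjusted p = 0.000536), Cd74 by 5.15 (3.11 to 7.195; limma, adjusted p = 0.00448) and B2m by 3.79 (2.47 to 5.12; limma, adjusted p = 0.00151). These 3 of 9 genes stand beside 1.56% of all genes called, and 1.37% called higher. RT1-Da and Tap1 differed by 4.08 and 2.92 without a call (limma, adjusted p = 0.0916 and 0.167), and RT1-DMa by -0.72 (-3.66 to 2.21; limma, adjusted p = 0.821). The ages did not overlap for 5 of the 9 genes, namely Cd74, RT1-Da, RT1-A2, B2m and Tap1, against 16% of all genes. For RT1-Da this rested on an estimated 0.15 of a read pair in aged soft replicate 2. Cd74 had an estimated 2.08 and 1.21 pairs in aged soft replicates 1 and 2. RT1-Bb, RT1-DMb and RT1-Db1 differed by 2.59, 2.23 and 1.77 (limma, adjusted p = 0.36, 0.333 and 0.462). The median difference was 2.92, against 0.86 for all genes, and without aged soft replicate 1 these medians were 3.22 and 0.45. All 3 calls held with any library left out, and RT1-Da was added without aged soft replicate 2 (limma, adjusted p = 0.0363), but that of Cd74 was lost when the 2 groups were fitted alone (limma, adjusted p = 0.0869). Of the 20 microglia markers, some of which passed the filter only through aged libraries, 7 rose in this contrast. Of 14 OPC markers 3 fell.

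On stiff gels Cd74 was the only one of the 9 genes to pass, with a difference of 4.59 (2.55 to 6.63; limma, adjusted p = 0.00897), against 2.18% of all genes called and 1.13% called higher. RT1-A2 differed by 3.37 (1.28 to 5.46; limma, adjusted p = 0.088), RT1-Da by 2.78, Tap1 by 1.73 and B2m by 1.63 (0.30 to 2.95; limma, adjusted p = 0.317, 0.516 and 0.251). RT1-DMa and RT1-Bb differed by 2.16 and 2.04 (limma, adjusted p = 0.566 and 0.597). RT1-Db1 and RT1-DMb were listed at 0 in all 6 stiff libraries. Aged and neonate libraries did not overlap for Cd74, RT1-A2 and B2m, which was so for 5.61% of all genes. The call of Cd74 was lost without aged stiff replicate 2 (limma, adjusted p = 0.0513), without neonate stiff replicate 1 (0.0946), without the 3 broad aged libraries (0.117), with a pseudocount of 0.1 (0.0768) and with the 2 groups fitted alone (0.41). RT1-A2 was called without aged stiff replicate 2 (limma, adjusted p = 0.0191) and RT1-Da without aged stiff replicate 3 (0.0455). The median difference was 2.04, against 0.49 for all genes, and without aged stiff replicate 1 these medians were 2.72 and 0. In this contrast 6 of 20 microglia markers rose, some of the 20 having passed the filter only through aged libraries. Of 14 OPC markers 3 fell.

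**Figure D3:**
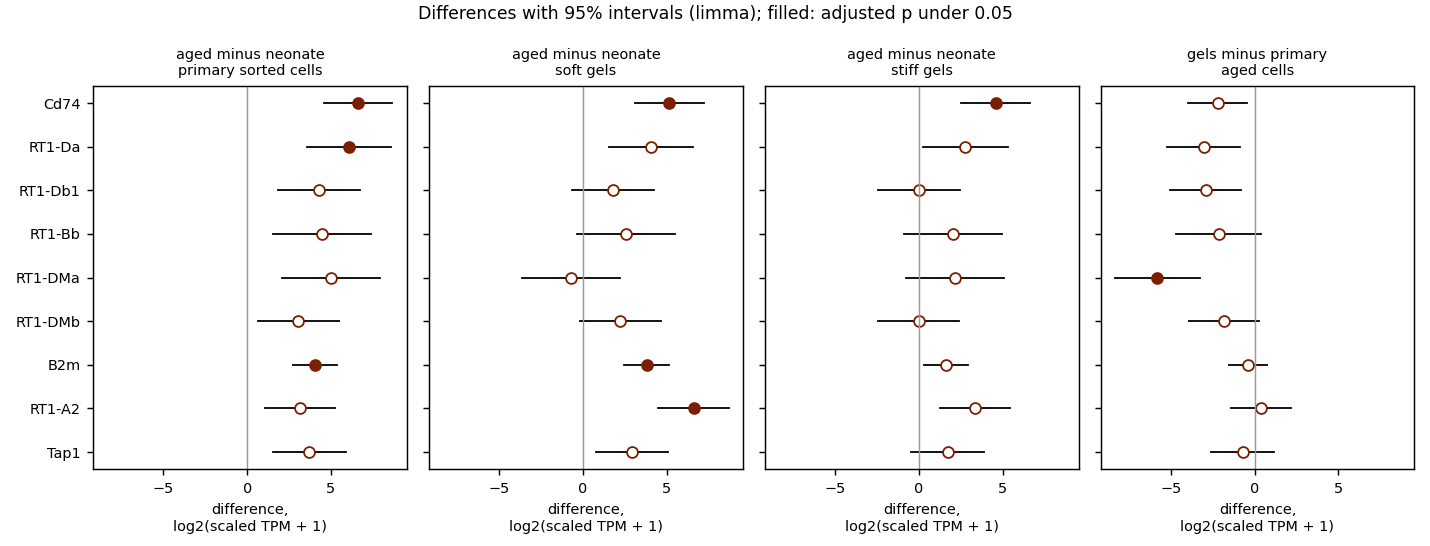
Difference of each gene on the log2(scaled TPM + 1) scale with its 95% interval in 4 comparisons, filled where limma's adjusted p is under 0.05. Cd74 is filled in the 3 comparisons of age, B2m in primary cells and soft gels, RT1-A2 in soft gels, RT1-Da in primary cells, and RT1-DMa in the comparison of aged gel with aged primary cells.

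Setting gels against primary cells asked what changed when aged cells were cultured. RT1-DMa fell in aged gel libraries by 5.79 on the log2 scale (interval -8.33 to -3.25; limma, adjusted p = 0.0142), as 1 of 9 genes tested against 1.11% of all genes called and 0.773% called lower. The other class II genes were lower without a call, with differences of -2.20 for Cd74, -3.03 for RT1-Da, -2.92 for RT1-Db1, -2.14 for RT1-Bb and -1.83 for RT1-DMb (limma, adjusted p between 0.233 and 0.646). Class I genes were not called, at 0.38 for RT1-A2 (-1.43 to 2.20), -0.40 for B2m (-1.55 to 0.75) and -0.70 for Tap1 (-2.58 to 1.18). Gel and primary libraries did not overlap for Cd74, RT1-Da and RT1-DMa, all lower in gels, as for 2.93% of all genes. The RT1-DMa call was lost without any one of the 3 aged primary libraries (limma, adjusted p = 0.0536, 0.0992 and 0.132) and with a pseudocount of 0.1 (0.197), and voom called Cd74 and RT1-Da as well. The microglia markers P2ry12 and Cx3cr1 fell by 8.11 and 6.97 in the same contrast (limma, adjusted p = 7.98e-06 and 0.00138), among 6 of 20 that fell.

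In neonate cells 0 of 9 genes were called between gels and primary cells by limma, against 0.099% of all genes, with 0 at an unadjusted p under 0.05 and 0 by voom. B2m differed by 0.93 (-0.22 to 2.08) and RT1-A2 by -1.43 (-3.25 to 0.38). Whether culture acted differently by age was tested as an interaction. It called 0 of 9 genes by limma, against 0.112% of all genes, with 0 by voom and 2 at an unadjusted p under 0.05. These were RT1-DMa at -4.27 (-7.87 to -0.68) and RT1-Db1 at -3.38 (-6.38 to -0.39).

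Soft against stiff gels asked whether the stiffness of the surface moved these genes. In aged cells limma called 0 of 9 genes, against 0.0792% of all genes, with 0 by voom and 3 at an unadjusted p under 0.05. The 3 were B2m at 1.45 (0.12 to 2.77), RT1-Db1 at 2.69 (0.24 to 5.14) and RT1-DMb at 2.46 (0.05 to 4.87). B2m was also the only member whose aged soft libraries all lay above the aged stiff ones, which held for 6.63% of all genes. Cd74 differed by -1.77 (-3.81 to 0.27; limma, adjusted p = 0.538). The median difference of the 9 genes was 1.005, against 0.59 for all genes. These medians were 0.63 and 0.24 without aged soft replicate 1, 1.33 and 1.16 without aged stiff replicate 1, and 0.54 and 0.72 without the 3 broad aged libraries, so the list is not set apart from all genes here.

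The ratio of Cd74 to B2m within a library, which no scaling can move, was chosen after its values were seen. It was 0.0788, 0.0372 and 0.255 in aged soft, 0.942, 1.58 and 0.440 in aged stiff and 1.17, 1.45 and 0.583 in aged primary libraries. In neonate libraries it was 0 in all 3 soft ones, 0, 0.0853 and 1.42 in stiff ones and 0.0859, 0 and 0.421 in primary ones. Among aged libraries the soft ones had the lowest ratios, with no overlap with the stiff or primary ones, while 5 neonate libraries with Cd74 at 0 were lower still. This ratio was not tested. In aged soft replicates 1 and 2 it rested on an estimated 2.08 and 1.21 read pairs on Cd74. The ratio is a description and does not say which of the 2 genes differed.

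In neonate cells limma called 0 of 9 genes between soft and stiff gels, against 0% of all genes, with 0 by voom. At an unadjusted p under 0.05 there were 2, Cd74 at -2.33 (-4.375 to -0.29) and RT1-A2 at -2.22 (-4.31 to -0.12). The interaction of age with stiffness called 0 of 9 by limma and 0 by voom, against 0.0066% of all genes. Here 2 genes had an unadjusted p under 0.05, RT1-A2 at 3.22 (0.26 to 6.18) and B2m at 2.17 (0.29 to 4.04). The differing calls for age on soft and stiff gels are therefore not shown to be a difference between the gels.

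No regulator of class II transcription was called. Of 14 other class II and regulator genes 10 were tested, and limma called 0 in each of the 9 comparisons, with 0 to 2 at an unadjusted p under 0.05 and 0 to 1 by voom. Ciita and Rfx5 are given for their role and were chosen after their values were seen. Ciita, the class II coactivator, was at 14.6, 9.22 and 6.09 scaled TPM in aged soft, 12.8, 0 and 2.22 in aged stiff and 21.5, 2.31 and 1.86 in aged primary libraries, against 2.37, 3.79 and 0, then 0 in all 3, then 2.41, 8.98 and 1.26 in neonate soft, stiff and primary ones. Aged and neonate libraries met or overlapped in primary cells and on stiff gels. On soft gels the aged ones were all higher, which held for 16% of all genes. Rfx5, a subunit of the factor that binds the X box, was at 14.9, 14.9 and 26.2 in aged primary and 26.5, 21.3 and 34.4 in neonate primary libraries. Rfxank, also chosen after its values were seen, was at 83.2, 115 and 89.6 in aged stiff and 19.1, 67.8 and 60.7 in neonate stiff libraries. These did not overlap, as for 5.61% of all genes, but the ages overlapped for Rfxank in the other cultures. Of 12 interferon receptor and signalling genes 11 were tested, and limma called 0 in each comparison, with 0 to 4 at an unadjusted p under 0.05 and 0 to 2 by voom. None of 5 interferon cytokine genes passed the filter, and Ifng was listed at 0 in 17 of 18 libraries.

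Proteases cut antigens and the invariant chain for class II. A list of 10 genes held such proteases, the reductase Ifi30 and the ubiquitin ligases March1 and March8. Of these 10 genes, all tested, 5 rose in aged primary cells, 5 on soft gels and 3 on stiff gels. In the same contrasts 1.94%, 1.37% and 1.13% of all genes were called higher. Ctss, the cathepsin that trims the invariant chain, was at 271, 438 and 1059.9 scaled TPM in aged primary and 0.784, 6.996 and 12.8 in neonate primary libraries, a difference of 6.43 (limma, adjusted p = 0.00353). Like RT1-DMa it fell in aged gel against aged primary libraries, by 4.79 (limma, adjusted p = 0.0198), with 11.9, 30.4 and 27.4 in aged soft and 111, 27.1 and 0 in aged stiff libraries. Lgmn, an asparaginyl endopeptidase, rose in aged cells of each culture, by 6.04 on soft gels, 5.30 on stiff gels and 3.51 in primary cells (limma, adjusted p = 0.00073, 0.00157 and 0.0466). Its aged levels were 324, 548 and 301 in soft, 231, 499 and 176 in stiff and 303, 608 and 499.8 in primary libraries, and aged gel and primary libraries overlapped. Ctsz rose by 4.07 on soft and 5.85 on stiff gels (limma, adjusted p = 0.00838 and 0.00014).

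Among other class I genes, 29 of 38 were tested and 1, 1 and 4 rose with age in primary cells, soft gels and stiff gels, where 1.94%, 1.37% and 1.13% of all genes were called higher. A single call among 29 genes is near that background. RT1-CE7 rose in all 3, by 5.44, 3.997 and 5.53 (limma, adjusted p = 0.00286, 0.0424 and 0.00183). Among neonate libraries it was above 0 only in primary replicate 1 (2.54) and soft replicate 2 (8.73). RT1-CE7 thus passed the filter only through aged libraries. Of 13 peptide loading and immunoproteasome genes tested Psme2, a proteasome activator subunit, rose on soft gels by 4.45 (limma, adjusted p = 0.0376) and no other was called in any comparison. Among 10 costimulatory and class I-like genes Cd40 and Cd86, which deliver second signals to T cells, rose in aged primary cells by 4.79 and 3.32 (limma, adjusted p = 0.039 and 0.0419). Both passed the filter only through aged libraries, since Cd86 was listed at 0 in all 9 neonate libraries and Cd40 in 8 of 9. Icam1 and Fcgrt, an adhesion molecule and the neonatal Fc receptor that pairs with B2m, rose on soft gels by 4.21 and 3.58 and on stiff gels by 5.95 and 3.86 (limma, adjusted p between 0.000166 and 0.0257).

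Markers of other cell types that carry class II were also read. Border macrophage and monocyte markers summed to 168 to 364 scaled TPM in aged soft, 261 to 562 in aged stiff and 117 to 161 in aged primary libraries, against 0 to 63.7 over all neonate libraries. Lyz2, the lysozyme of macrophages, was at 330.0, 228 and 505 in aged stiff libraries and rose with age in primary cells by 5.62 and on stiff gels by 7.30 (limma, adjusted p = 0.00685 and 0.000443). It was the only one of 9 tested that limma called for age. The counts were 1 in primary cells, 0 on soft gels and 1 on stiff gels, against 1.94%, 1.37% and 1.13% of all genes called higher. In aged gel libraries Lyz2 and Pf4 made up most of the sum. In aged stiff ones Cd163 was at 8.74, 2.22 and 0 and Mrc1 at 7.48, 0 and 4.42. Markers of B cells, T cells and dendritic cells summed to 64.2 to 138, 20.7 to 190.2 and 80.2 to 226 in aged soft, stiff and primary libraries, against 3.16 to 34.0 over all neonate libraries. The highest sum of each aged group was that of replicate 1, its broad library. Cd4, which rat macrophages also carry, was the only one of these called, higher in aged cells by 3.81 on soft and 4.05 on stiff gels (limma, adjusted p = 0.0204 and 0.00863). Of 10 endothelial markers limma called 0 in each comparison, with 0 to 4 at an unadjusted p under 0.05 and 0 to 3 by voom. Of 10 mature oligodendrocyte markers Aspa rose and Mog fell in aged primary cells, and Mog was higher in aged gel than in aged primary libraries. For age in primary cells the median difference of the 10 was 3.21, against 0.69 for all genes. All 10 had an unadjusted p under 0.05 by limma, and voom called 7. Aspa was listed at 0 in all neonate libraries, so it passed the filter only through aged ones. Of 10 astrocyte markers Gfap fell in aged cells on stiff gels. The part of these cells in the results was not tested.

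**Figure D4:**
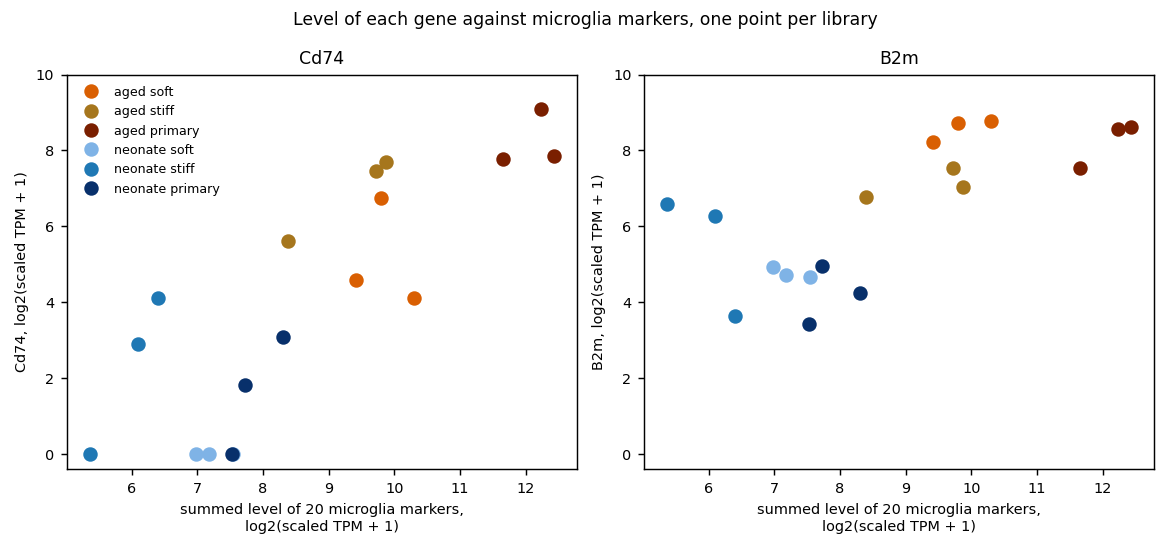
Cd74 (left) and B2m (right) against the summed level of 20 microglia markers, both on the log2(scaled TPM + 1) scale, with 1 point per library. Marker sums of aged soft libraries (683 to 1256) and aged stiff libraries (334 to 935) overlap, all 3 aged soft libraries are above the aged stiff ones in B2m, and 2 of 3 are below them in Cd74.

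Across the 18 libraries and among 4572 genes of sufficient level, the genes most like Cd74 were Plcg2, a phospholipase of immune receptor signalling, with a Pearson correlation of 0.896, Tchp with 0.891, Lpcat2 with 0.889, the chemokine receptor Cxcr5 with 0.886 and LOC498276 with 0.885. Those most like B2m were the phosphatase Ppm1n with 0.918, the kinase Stk10 with 0.903, the class I gene RT1-A1 with 0.893, Lysmd1 with 0.886 and LOC498276 with 0.877. Among the 10 genes themselves RT1-Da ranked 52nd for Cd74 with 0.824, whereas Cd74 and B2m correlated at 0.728. These values share the libraries, their depth and the difference between the ages, and are a description.

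Coverage within the genes was uneven, which bears on what their levels stand for. In Cd74 exons 3 to 5 hold 19.6% of the transcript length and took 70.2% of its estimated read pairs over all libraries. In B2m exons 1 and 2 hold 20.01% of the length and took 92.9%, while the long last exon, 78.4% of the length, took 5.99%. TPM divides by the whole annotated length, so the level of B2m against other genes depends on that last exon. In RT1-A2 the pattern was reversed. Exons 1 and 2 had no coverage in any library, exon 3 took 3.08% of the pairs and the last exon, exon 8, took 80.9%. Exons 2 and 3 encode the peptide-binding domains that differ most between class I alleles. Exons 4 and 5 took 9.09% and 6.63% of the pairs.

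**Figure D5:**
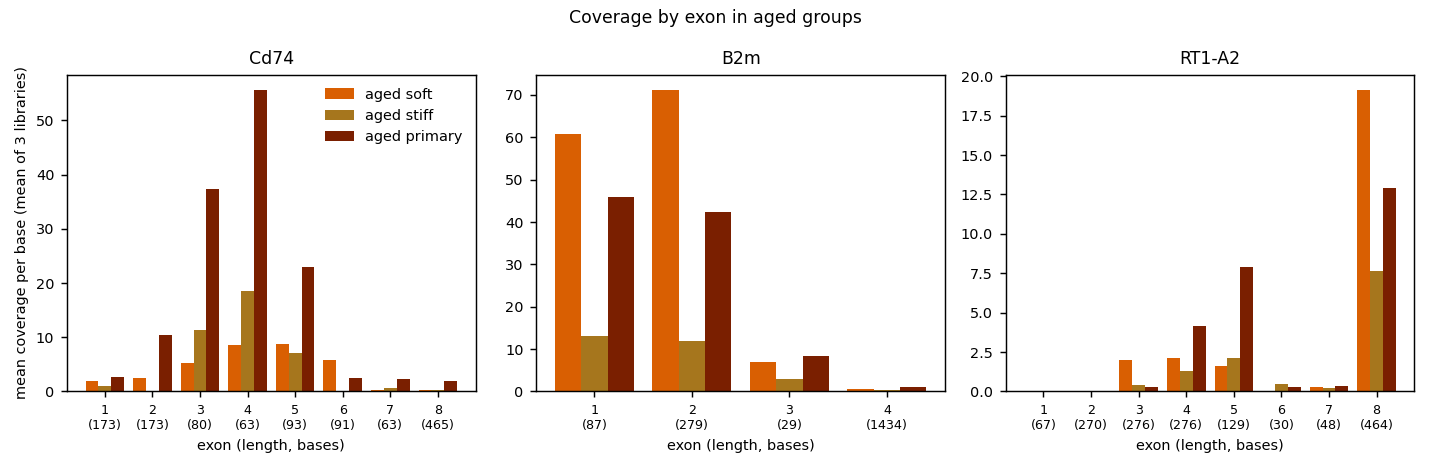
Mean coverage per base of each exon of Cd74, B2m and RT1-A2 in the aged groups (mean of 3 libraries), with exon lengths in bases under the axis. Coverage peaks in exons 3 to 5 of Cd74 and exons 1 and 2 of B2m, and in RT1-A2 it lies mostly in exon 8.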

How the data were processed

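Transcript levels were read from 18 deposited StringTie files of annotated transcripts, with 18902 transcripts of 17337 genes. Per the file headers the authors ran StringTie 1.3.2d with the UCSC rn6 annotation, limited to annotated transcripts and with no strand option, so overlapping genes cannot be told apart. Per the file headers the other values in the deposited files are FPKM and coverage beside TPM. Trimmomatic, HISAT2 and Bowtie are named in the submitters' processing notes without versions. Per the labels' protocols a stranded pico-input total RNA kit was used, and sequencing was in pairs of 150 bases.

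Gene sums of TPM were divided by size factors, each the median ratio over the 1644 genes that every library detected. The filter, TPM 1 or more in 3 or more libraries, left 15144 genes, among them 9 of the 10 members. Values of log2(scaled TPM + 1), a scale that understates the change of low genes, entered limma 3.58.1 (R 4.3.3) with a mean for each of the 6 groups, a variance trend and Benjamini-Hochberg adjustment over all genes tested. Gel comparisons with primary cells used the mean of both gels. The fit was tested on simulated data. The members, the 14 other gene lists, the tests and the naming rule were chosen with earlier results of these data known. By that rule the 10 members were always named, with up to 4 called genes per list and comparison and the 5 genes most like Cd74 and B2m at a mean scaled TPM of at least 10. Replicate numbers in the titles differ from names in the file headers and were not taken to pair libraries. The alternatives tried were omitting the filter, a pseudocount of 0.1, a filter at a TPM of 5, no scaling, quantile normalization, limma voom on estimated read pairs with TMM factors, only the groups compared, a replicate block, each library left out, and the 3 broad aged libraries left out. Depth limits precision, and read pairs are estimates from coverage, so no counting interval is given.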

Additional observations from a re-analysis of the deposited data

How the results depend on the processing

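Counts of called genes among the 9 tested were recomputed under each alternative with limma or voom. In primary cells the count of 3 for age became 8 by voom, and 3 to 4 with any library left out. On soft gels it stayed within 2 to 4. On stiff gels the count of 1 became 0 with a pseudocount of 0.1, 0 with only the groups compared, 0 without the 3 broad aged libraries and 2 with no scaling, and was 0 to 2 with a library left out. For aged gels against primary cells the count of 1 became 3 by voom, 0 with a pseudocount of 0.1, and was 0 to 1 with a library left out. The 5 other counts stayed at 0 in every alternative run.

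With the replicate block, 5 genes were called for age in primary cells, adding RT1-Db1 (limma, adjusted p = 0.0391) and Tap1 (0.0149), and no other count changed. Residuals of libraries with the same number correlated between -0.093 and 0.233, with medians of 0.013, 0.006 and 0.007 for the 3 numbers. The best match had the same number for 10 of 18 libraries, where 6 are expected if numbers carry nothing. The highest correlation, 0.233, was among libraries numbered 1, which include the 3 broad aged ones. The medians were near 0 and the labels name no shared animal or day, so the numbers were not used as pairs. Whether libraries of the same number belong together was not tested. With quantile normalization the median of all genes for age was about 0 in each culture.

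Differences that changed sign were all uncalled in every setting named here. For neonate gels against primary cells these were B2m (-0.17) and Tap1 (-0.066) with no scaling and Cd74 (0.11) and RT1-Da (0.20) by voom, and with a library left out Cd74 ran from -1.30 to 0.25 and Tap1 from -0.25 to 1.23. For soft against stiff gels in aged cells they were RT1-Bb (-0.37) with quantile normalization, and RT1-Bb (-0.67) and Tap1 (-0.45) without the 3 broad libraries. With a library left out RT1-Bb ran from -0.56 to 2.59, Tap1 from -0.75 to 1.20, RT1-A2 from -0.13 to 1.66 and RT1-Da from -0.093 to 2.66. In neonate cells RT1-DMb was -0.16 by voom and Tap1 ran from -1.89 to 0.21. RT1-A2 in aged gels against primary cells ran from -1.06 to 1.36. In the age by stiffness interaction Cd74 was -0.0081 with no scaling and ran from -0.32 to 1.74, RT1-Bb was -0.29 with quantile normalization, -0.67 without the broad libraries and ran from -0.56 to 2.59, and RT1-Da ran from -0.093 to 2.66. The causes were not tested. Of all alternative values of single genes 1372 kept their direction and side of the threshold, 10 lost and 20 gained a call, and 29 changed sign. Depth limits all class II values in neonate libraries, where the estimated pairs on Cd74 were 0 to 1.75 per library. It limits them in aged soft replicates 1 and 2 as well, where Cd74 had 2.08 and 1.21.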
